A study of Mus musculus with 20 samples.

Results

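The thin filament switch and the myosin light chains of fast and slow muscle fibres were followed through overload of the mouse plantaris injected with a control virus or a miR-1 mimic virus. The genes were 10 in number, chosen by name as the slow and the fast isoform of each subunit, out of 54532 genes in the count tables. The slow genes were the 5 genes Tnni1, Tnnt1, Tnnc1, Myl2 and Myl3, and the fast genes were the 5 genes Tnni2, Tnnt3, Tnnc2, Mylpf and Myl1. Plantaris muscles of male C57BL/6J mice aged 5 months were taken 10 days after a sham operation or mechanical overload (MOV), in which part of the neighbouring gastrocnemius and soleus was cut away so that the plantaris carried their load. At surgery 50 µL of lentivirus was injected, with a scrambled mimic in the left muscle (control) and a miR-1a-3p mimic in the right muscle (mimic). Both viruses carried a green fluorescent reporter, with expression driven by a mouse CMV promoter, which is not specific to a cell type, and only some of the fibres took up virus. The groups are named by the virus injected, and the level of miR-1 itself is not measured in these libraries. The 4 groups were therefore sham control, MOV control, sham mimic and MOV mimic, each with 5 libraries of whole-muscle RNA. Every group had surgery and a viral injection, so there was no untouched muscle. The labels number the libraries within a group and do not say whether equal numbers are muscles of the same mouse, so p-values measure the spread between these libraries.

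Troponin sits on the thin filament of the sarcomere and turns contraction on when calcium rises. Its C subunit binds the calcium, its I subunit holds actin and myosin apart until then, and its T subunit ties the complex to tropomyosin. Myosin light chains wrap the neck of the myosin heavy chain, where the essential chain stiffens the neck and the regulatory chain can be phosphorylated. Slow fibres and fast fibres use different genes for each of these parts, and the slow Tnnc1, Myl2 and Myl3 also serve the heart ventricle. The plantaris is a predominantly fast muscle. Growing and regenerating fibres pass through stages in which embryonic and cardiac isoforms are used before the adult set is in place.

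Total counts ran from 12036360 to 23056525 per library, and the 10 genes together took between 2.7% and 5.23% of them. The 20 pan-fibre genes of skeletal muscle, such as titin and creatine kinase, summed to between 51710 and 121700 CPM, the counts scaled to library size with TMM factors, so each library was muscle RNA. On the first 2 principal components, which held 25.3% and 16.3% of the variance, sham control replicate 1 and sham mimic replicate 1 stood apart at one end (-82.4 and -78.4 on the first) and MOV mimic replicate 4 at the other (111 on the first and 117 on the second). The summed fibroblast and tendon markers were 1387 CPM in sham control replicate 1 and 2035 CPM in sham mimic replicate 1, against 4402 to 16390 CPM in the other libraries. On the second component the sham libraries were at 48.8 and 43.4, and the other 17 libraries were at 15.8 or below. Values without these 3 libraries stand beside the comparisons of MOV with sham. In whole muscle, fewer cells of a type and less RNA per cell cannot be told apart.

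Levels of different genes were compared per kilobase of the longest coding transcript. In sham control the median level was 12200 CPM per kilobase for Tnnt3, 11300 for Myl1, 10800 for Mylpf and 10100 for Tnni2, and these 4 fast genes overlapped one another across libraries. The slow genes were far lower, at 253 CPM per kilobase for Myl2, 116 for Myl3, 91.1 for Tnnt1, 73.5 for Tnni1 and 65.3 for Tnnc1. Myl2 lay above Myl3 in every sham control library, and the ranges of Myl3, Tnnt1, Tnni1 and Tnnc1 overlapped. The share of the slow isoform within a subunit was therefore small, with a median in sham control of 0.638% for troponin I, 0.785% for troponin T, 2.21% for the regulatory light chain and 1.02% for the essential light chain. The exception was troponin C. Tnnc2, the fast isoform, had only 10 to 43 counts per library and a median of 1.54 CPM per kilobase in sham control, so that Tnnc1 made up 97.7% of the troponin C reads per kilobase there. Such a level is out of scale with the other 4 fast genes, whose counts were between 55921 and 310298 per library. None of the 651 stretches of 50 bases in the Tnnc2 transcript occurred in the coding transcript of another gene, and no RefSeq gene overlapped it. Why so few reads were assigned to Tnnc2 was not tested, and its level is not read here as that of fast troponin C. Myl2 shared its position with Ccdc63, Tnnt3 with Prr33 and Mylpf with Septin1, and without the strand setting of the counting, reads from overlapping genes may have been assigned to either.

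Promoters are shown for the 3 slow troponins, which varied together across libraries, and for Myl2, which followed them less closely. They are the 150 bases before the first start listed for each gene in the RefSeq promoter table (build GRCm38.p6). That table held promoters for 8 of the 10 genes and not for Tnni2 and Tnnt3. The stretch of Tnni1 lies within the RefSeq gene, which begins at chr1:135783033, so it does not precede the gene's outermost start. Those of Tnnt1, Tnnc1 and Myl2 end where their genes begin. The starts used for Mylpf and Myl1 also lie within their genes. Capitals mark letters of the motifs searched: the E-box CANNTG read by MyoD and myogenin, MCAT (CATTCC) read by TEAD factors, TATAAA, and the MEF2 and CArG motifs by name. TATAAA was searched only on the strand shown and the other motifs on both strands. No motif searched overlapped another in the stretches shown.
Tnni1 (chr1:135799271-135799420, plus strand): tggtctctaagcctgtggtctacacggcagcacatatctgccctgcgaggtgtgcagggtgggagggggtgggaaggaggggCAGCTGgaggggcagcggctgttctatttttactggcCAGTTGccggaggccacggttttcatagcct
Tnnt1 (chr7:4515976-4516125, minus strand): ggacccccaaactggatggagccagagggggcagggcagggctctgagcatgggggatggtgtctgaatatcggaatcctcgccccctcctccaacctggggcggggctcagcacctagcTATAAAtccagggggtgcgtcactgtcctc
Tnnc1 (chr14:31208162-31208311, plus strand): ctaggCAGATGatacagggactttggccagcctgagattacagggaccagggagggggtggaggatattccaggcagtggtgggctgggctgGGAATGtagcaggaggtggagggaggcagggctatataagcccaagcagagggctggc
Myl2 (chr5:122092574-122092723, plus strand): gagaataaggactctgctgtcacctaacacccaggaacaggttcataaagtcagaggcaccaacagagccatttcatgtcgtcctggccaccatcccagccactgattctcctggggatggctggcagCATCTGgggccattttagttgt
In the full 250 bases before the start, the promoter of Tnni1 held 4 E-boxes, that of Tnnt1 held 1 E-box and 1 TATAAA, that of Tnnc1 held 2 E-boxes and 1 MCAT, and that of Myl2 held 1 E-box. Myl3 held 2 MCAT motifs, 1 CArG and 1 E-box, Myl1 held 1 MCAT and 1 E-box, Mylpf held 1 E-box and Tnnc2 held 2. Of 32851 promoters of the same length, 66.2% held an E-box, 12.6% MCAT, 7.6% TATAAA, 2.9% MEF2 and 1.5% CArG. The 3 slow troponins thus shared the E-box, which most promoters hold, and no other motif searched was in all of them.

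The first question was how the genes responded to overload under the control virus. The slow troponins Tnni1, Tnnt1 and Tnnc1 had higher fitted levels in MOV control than in sham control (2.72-, 2.12- and 2.26-fold), while the slow light chains Myl2 and Myl3 had lower ones (0.62- and 0.512-fold), so the slow set did not share a direction. The fast troponins Tnni2 and Tnnt3 were at 0.752- and 0.731-fold and the fast light chains Mylpf and Myl1 at 1.09- and 1.08-fold. None of these differences passed an adjusted p of 0.05 in edgeR's quasi-likelihood test: 0 of 10 genes passed, beside 1 of 14974 genes tested (0.00668%). At an unadjusted p under 0.05 there were 4 of the 10 genes, beside 18.2% of all genes tested, with 2 higher (9.06% of all genes) and 2 lower (9.15%). DESeq2 gave 1 gene and limma with voom and sample weights gave 1 gene past the adjusted threshold, in both cases Myl2, beside 913 and 946 genes of all. For each of the 10 genes the 2 groups overlapped, while 4.68% of all genes had groups that did not (2.38% higher and 2.3% lower in every MOV control library).

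Tnni1, the inhibitory subunit of slow fibres, had levels of 11.9, 84.5, 165, 97.2 and 26.4 CPM in sham control replicates 1 to 5. In MOV control it was at 303, 197, 187, 272 and 83.7 CPM. Thus 4 of the 5 MOV control libraries were above every sham control library, and replicate 5 was the exception. The log2FC was 1.45 ± 0.56 (SE, n = 5 per group, edgeR p = 0.0236, adjusted p = 0.198, exact permutation p = 0.0397 on log2 CPM, two-sided). Without sham control replicate 1 the log2FC was 1.17.

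Tnnt1, the slow subunit that anchors troponin to tropomyosin, stood at 50.3, 134, 223, 96.4 and 23.3 CPM in sham control and at 242, 213, 237, 269 and 151 CPM in MOV control. The 5 MOV control libraries were close together, and 3 of them lay above all sham control libraries. Its log2FC was 1.08 ± 0.45 (SE, n = 5 per group, edgeR p = 0.0316, adjusted p = 0.225, exact permutation p = 0.0238). Tnnc1, the calcium sensor of slow fibres and heart, was at 5.37, 76.6, 77.0, 47.1 and 9.46 CPM in sham control and at 159, 96.0, 85.8, 115 and 28.7 CPM in MOV control. Again 4 of 5 overload libraries exceeded every sham control library, with replicate 5 the lowest. Its log2FC of 1.17 ± 0.63 had an edgeR p of 0.0878 and an adjusted p of 0.349 (SE, n = 5 per group). The low sham values came from the same libraries in all 3 slow troponins, replicates 1 and 5.

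Myl2, the slow regulatory light chain, went the other way. It was at 308, 336, 225, 180.4 and 181 CPM in sham control and at 149, 159.7, 118, 214 and 119 CPM in MOV control, so 4 of the 5 overload libraries were below all sham control libraries and replicate 4 was within their range. The log2FC was -0.69 ± 0.22 (SE, n = 5 per group, edgeR p = 0.00822, adjusted p = 0.131, exact permutation p = 0.0317), and DESeq2 gave an adjusted p of 0.04825. Myl3, the slow essential light chain, was at 175, 186, 79.2, 42.0 and 109 CPM in sham control and at 71.6, 54.9, 77.4, 55.7 and 41.4 CPM in MOV control. Here the sham control libraries were the scattered ones, and only 1 overload library was below all of them. Its log2FC was -0.97 ± 0.34 (SE, n = 5 per group, edgeR p = 0.0136, adjusted p = 0.157, exact permutation p = 0.0873). Without sham control replicate 1, the log2FC was 0.90 for Tnnt1, 0.89 for Tnnc1, -0.60 for Myl2 and -0.79 for Myl3, and Tnnt1 was no longer under an unadjusted p of 0.05 in edgeR.

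**Figure D1:**
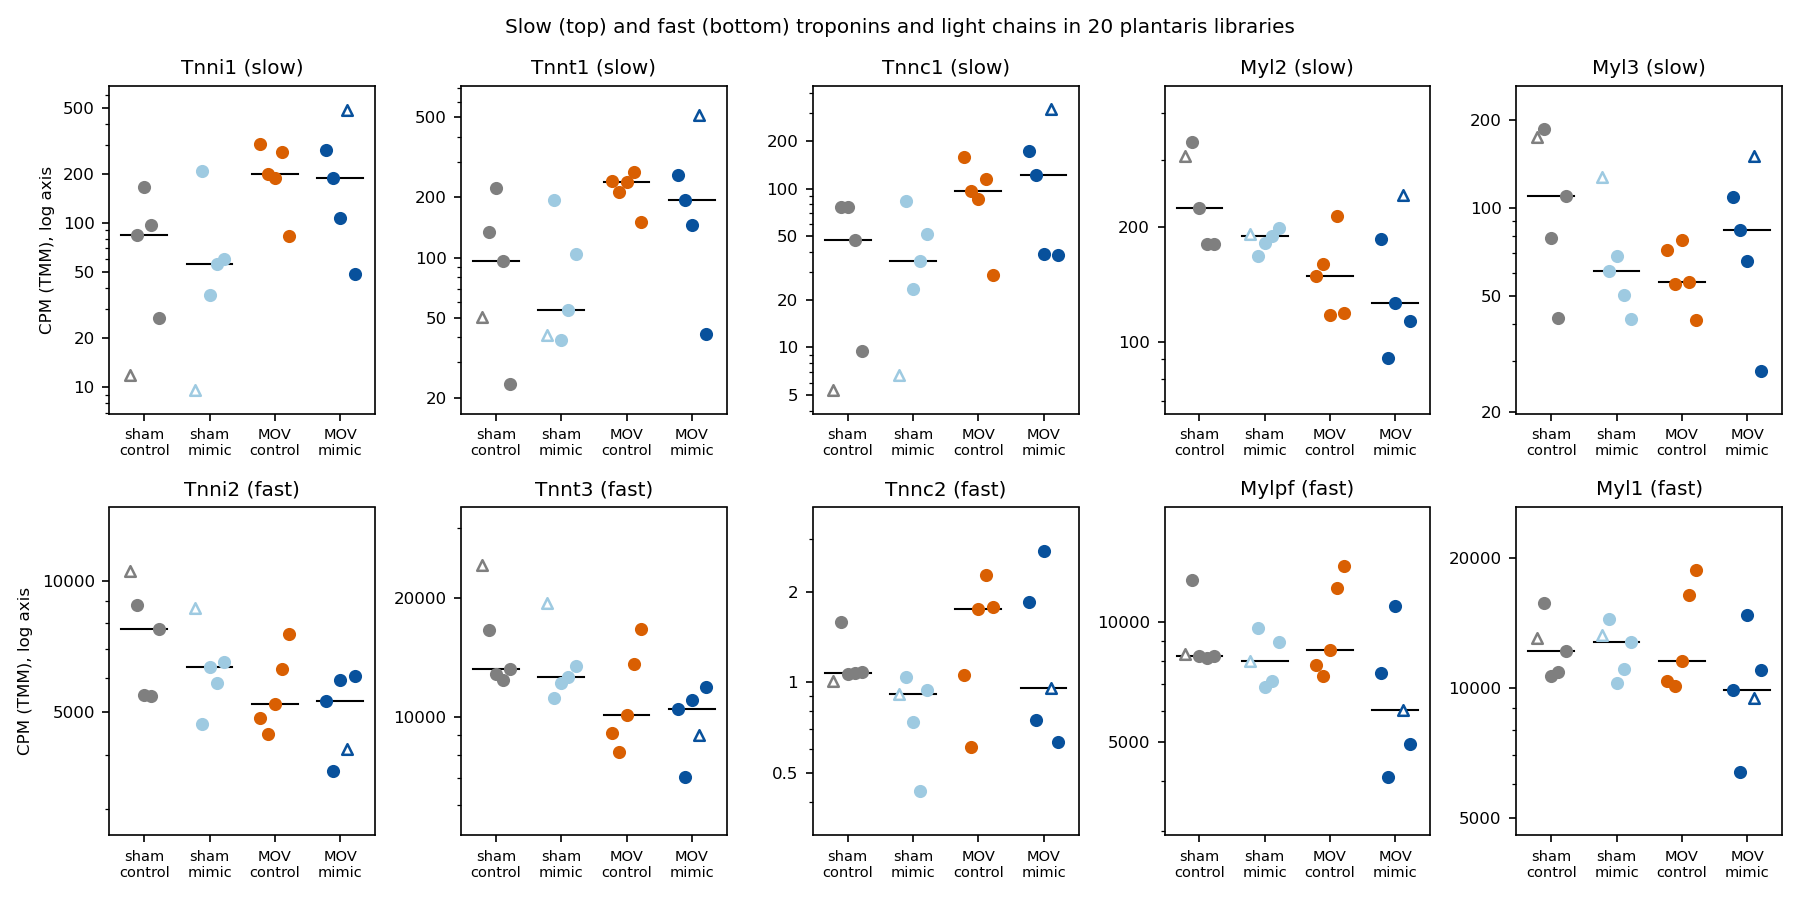
Level of each gene in CPM after TMM scaling (log axis) in the 20 libraries, with slow genes in the top panels and fast genes in the bottom panels. Points are libraries, short lines are group medians, and open triangles are sham control 1, sham mimic 1 and MOV mimic 4. Tnni1 ranged from 9.67 to 487 CPM, and the sham and MOV libraries overlapped in every panel.

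Among the fast genes of the control muscles, Tnnt3, the troponin T of fast fibres, was at 24146, 16573, 12815, 12424 and 13215 CPM in sham control and at 9114, 8148, 10114, 13586 and 16638 CPM in MOV control. The highest sham value was that of replicate 1, and without it the log2FC went from -0.45 to -0.25. Tnni2, its inhibitory partner, had a log2FC of -0.41 ± 0.23 (SE, n = 5 per group, edgeR adjusted p = 0.375), which was -0.27 without that library. Mylpf, Myl1 and Tnnc2 were at 0.09, 0.12 and 0.31 without it. Some markers of other cells were lower in this comparison at an unadjusted p under 0.05, beside 9.15% of all genes. They were 4 of 8 endothelial, 4 of 10 smooth muscle and pericyte, 3 of 3 erythrocyte and 2 of 4 adipocyte markers, with none past the threshold. The smooth muscle and pericyte list was not lower as a whole, with 5 of 10 log2FC positive and a median of 0.10. What part these markers had in the differences of the 10 genes was not tested. Mylpf and Myl1, the fast regulatory and essential light chains, had log2FC of 0.13 and 0.11, with intervals from -0.38 to 0.64 and from -0.39 to 0.61. Both signs turned without MOV control replicate 5, the library with the highest level of each (13877 and 18763 CPM), to -0.02 and -0.04. Tnnc2 had a log2FC of 0.36 on its few counts, with an interval from -0.51 to 1.23.

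The second comparison repeated the overload question under the miR-1 mimic. The 3 slow troponins were again higher, with fitted levels of 3.01-fold for Tnni1, 2.66-fold for Tnnt1 and 3.44-fold for Tnnc1 over sham mimic, while Myl2 was at 0.819-fold and Myl3 at 1.26-fold. Of the fast genes, Tnni2, Tnnt3, Mylpf and Myl1 were lower, at 0.726- to 0.838-fold. No gene of the 10 passed an adjusted p of 0.05 in edgeR, nor did any of the 14918 genes tested (0%), while 4 of the 10 were under an unadjusted p of 0.05 beside 13.4% of all genes. The 3 that were higher were the slow troponins (7.31% of all genes were higher at that p) and the 1 that was lower was Tnnt3 (6.08% of all genes). DESeq2 gave 0 of the 10 genes and 221 of all genes past the adjusted threshold and 3 of the 10 at an unadjusted p under 0.05 (15.2% of all genes), where limma with voom gave 0, 17 and 6 (22.5% of all genes). All 10 genes overlapped between these groups, while 0.959% of all genes were higher and 1.68% lower in every MOV mimic library. This comparison rested on few libraries. The count of 4 at an unadjusted p went to 1 without sham mimic 1, 3 or 4 or MOV mimic 1 or 4, beside 8.68% to 11.0% of all genes. It was 2 without sham mimic 5 (12.6% of all genes) or MOV mimic 2 (9.75%). The count stayed at 4 without sham mimic 2 (12.4%) or MOV mimic 5 (21.1%) and rose to 5 without MOV mimic 3 (13.1%). Without the 3 libraries that stood apart it was 1, beside 7.59% of all genes. That 1 gene was Myl2, so none of the 4 was under the unadjusted threshold without those libraries.

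In sham mimic Tnni1 was at 9.67, 206, 36.6, 56.0 and 60.4 CPM, and in MOV mimic at 277, 187, 108, 487 and 48.6 CPM. Only 2 of the 5 overload libraries exceeded every sham mimic library, and the sham mimic replicate 2 lay above 3 of the overload libraries. The log2FC was 1.59 ± 0.70 (SE, n = 5 per group, edgeR p = 0.0415, adjusted p = 0.358, exact permutation p = 0.0873), and it was 0.80 without the 3 libraries that stood apart. Tnnt1 was at 41.0, 194, 38.7, 55.0 and 104 CPM in sham mimic and at 258, 193, 145, 513 and 41.5 CPM in MOV mimic. Its MOV mimic values spanned 12.3-fold, from replicate 5 to replicate 4. The log2FC was 1.41 ± 0.58 (SE, n = 5 per group, edgeR p = 0.0306, adjusted p = 0.337, exact permutation p = 0.103), and 0.71 without the 3 libraries. Tnnc1 was at 6.7, 82.9, 23.2, 34.7 and 51.9 CPM in sham mimic and at 172, 122, 38.5, 316 and 37.9 CPM in MOV mimic. Here 3 of 5 overload libraries were above all sham mimic libraries, and replicates 3 and 5 were within them. The log2FC was 1.78 ± 0.65 (SE, n = 5 per group, edgeR p = 0.0178, adjusted p = 0.309, exact permutation p = 0.0714), and 0.95 without the 3 libraries.

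The slow light chains differed less between the mimic groups. Myl2 was narrow in sham mimic, at 192, 169, 182, 189 and 199 CPM, and wide in MOV mimic, at 187, 90.6, 126, 243 and 113 CPM. Its log2FC was -0.29, with an interval from -0.78 to 0.20. Myl3 was at 128, 60.6, 68.2, 50.3 and 41.6 CPM in sham mimic and at 109, 84.1, 66.0, 150.3 and 27.8 CPM in MOV mimic. The groups overlapped widely, with a log2FC of 0.33 and an interval from -0.50 to 1.17. Leaving out 1 library moved it to between 0.064 (without MOV mimic 4) and 0.66 (without sham mimic 1). Tnnt3 was at 19365, 11146, 12176, 12635 and 13453 CPM in sham mimic and at 10498, 7053, 11059, 9027 and 11907 CPM in MOV mimic, so 4 of 5 overload libraries were below every sham mimic library. Its log2FC was -0.46 ± 0.21 (SE, n = 5 per group, edgeR p = 0.0491, adjusted p = 0.373, exact permutation p = 0.0159). Without the 3 libraries that stood apart, Myl2 was at -0.51, Myl3 at 0.38, Tnnt3 at -0.28 and Tnni2 at -0.15, and Mylpf, Myl1 and Tnnc2 at -0.24, -0.20 and 0.92. The leukocyte markers differed in the same comparison: 14 of 15 tested had a positive log2FC, with a median of 0.69. At an unadjusted p under 0.05, 8 were higher, beside 7.31% of all genes, and 0 passed the threshold. Their summed level ran from 463 to 1440 CPM in sham mimic and from 743 to 2202 CPM in MOV mimic. The summed endothelial markers were lower, at 284 to 325 CPM in MOV mimic against 370 to 483 CPM in sham mimic, as were those of smooth muscle and pericytes, at 359 to 445 CPM against 498 to 649 CPM, with no overlap in either. Of all single genes, 1.68% were lower in every MOV mimic library. Within the lists, 2 of 8 endothelial and 4 of 10 smooth muscle and pericyte markers had a positive log2FC. The part of these cell markers in the differences of the 10 genes was not tested.

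**Figure D2:**
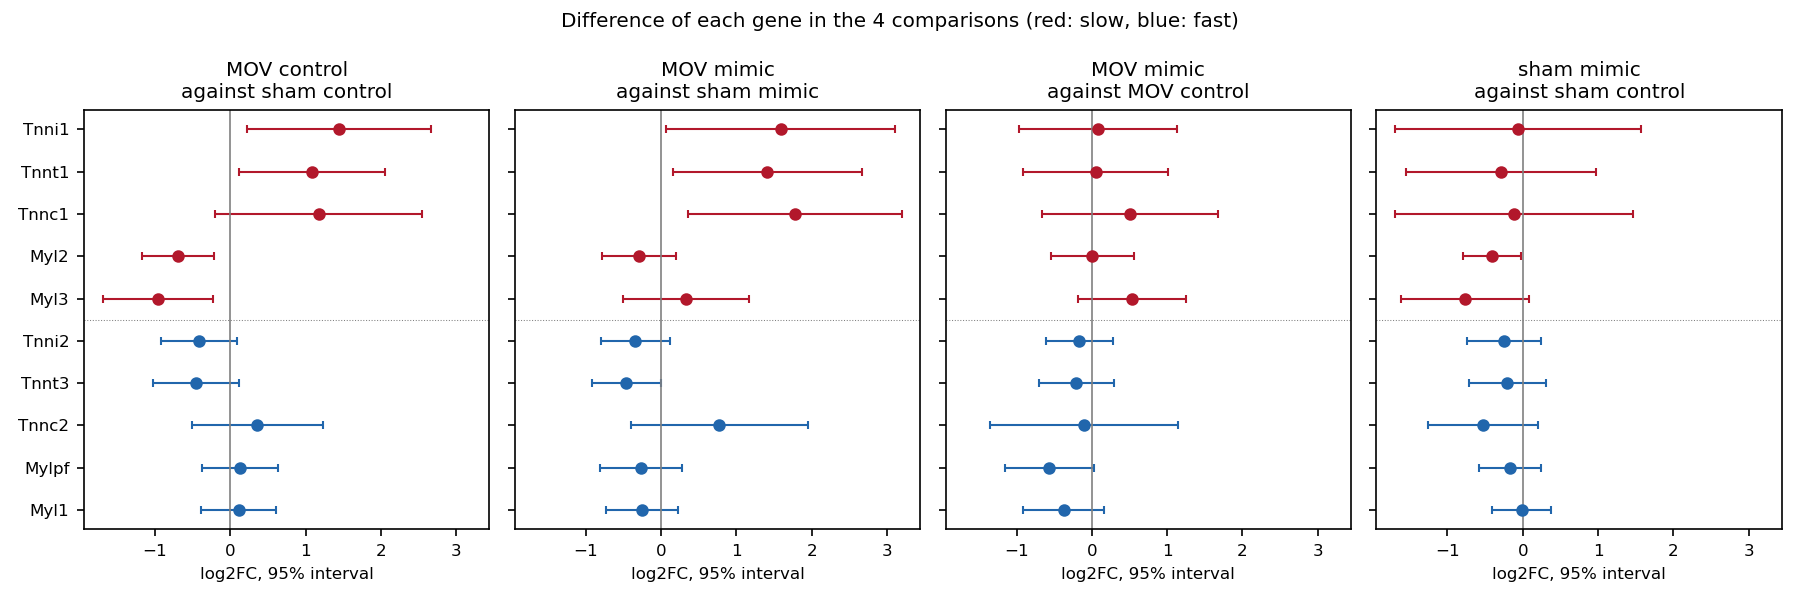
Log2FC of each gene from edgeR with its 95% interval in the 4 comparisons, with slow genes in red and fast genes in blue. The slow troponins sit at 1.08 to 1.78 in both overload comparisons, Myl2 and Myl3 at -0.69 and -0.97 under the control virus, and in MOV mimic against MOV control every interval includes 0.

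Within a subunit, the slow to fast ratio of CPM in the same library does not depend on the scaling between libraries. For troponin I the log2 ratio of Tnni1 to Tnni2 was -7.11 ± 1.89 in sham control and -4.87 ± 0.95 in MOV control (mean ± SD, n = 5), a 4.72-fold higher slow share, with 4 of 5 overload libraries above all sham libraries. In the mimic muscles it was -7.04 ± 1.89 and -4.87 ± 1.51, a 4.47-fold difference with 3 of 5 above. Without the 3 libraries that stood apart the differences were 2.97-fold and 2.04-fold. For troponin T the log2 ratio of Tnnt1 to Tnnt3 was -7.57 ± 1.41 in sham control and -5.67 ± 0.65 in MOV control, and -7.57 ± 1.18 and -5.82 ± 1.51 in the mimic groups. These differences were 3.73- and 3.38-fold, and 2.96- and 2.02-fold without the 3 libraries. As a share of reads per kilobase, slow troponin I had a median of 0.638% in sham control against 2.8% in MOV control, and of 0.616% in sham mimic against 3.29% in MOV mimic. Slow troponin T had medians of 0.785% against 2.33% and 0.442% against 2.44% in the same pairs of groups.

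The light chain ratios took another course. The log2 ratio of Myl2 to Mylpf was -5.24 ± 0.30 in sham control and -6.02 ± 0.53 in MOV control, a 0.581-fold ratio. It was the only subunit and comparison in which no library of one group reached the other. The gap was narrow, from -5.52 in the highest MOV control library to -5.51 in the lowest sham control library. Such ratios were not formed for other genes, so no share stands beside this. In the mimic groups the log2 ratio of Myl2 to Mylpf was -5.44 ± 0.25 and -5.47 ± 0.65, a 0.979-fold ratio. For Myl3 to Myl1 the log2 ratio was -6.90 ± 0.71 in sham control and -7.79 ± 0.71 in MOV control, and -7.58 ± 0.61 and -7.03 ± 1.14 in the mimic groups, which are 0.541- and 1.46-fold. Without the 3 libraries that stood apart, the overload difference was 0.632- and 0.855-fold for Myl2 to Mylpf and 0.608- and 1.41-fold for Myl3 to Myl1, in control and mimic muscles. Over all 5 subunits, Tnnc2 included, the mean log2 CPM of the slow genes less that of the fast genes was -4.48 ± 0.89 in sham control, -3.70 ± 0.79 in MOV control, -4.51 ± 0.73 in sham mimic and -3.39 ± 1.18 in MOV mimic (mean ± SD, n = 5 each). The MOV groups were thus 0.77 and 1.12 higher in log2 than their sham groups, a difference near the spread of 0.915 pooled over the groups, and 0.53 and 0.49 without the 3 libraries that stood apart. With Tnnc2 left out of the fast mean the differences were 0.86 and 1.31, and 0.58 and 0.67 without the 3 libraries.

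**Figure D3:**
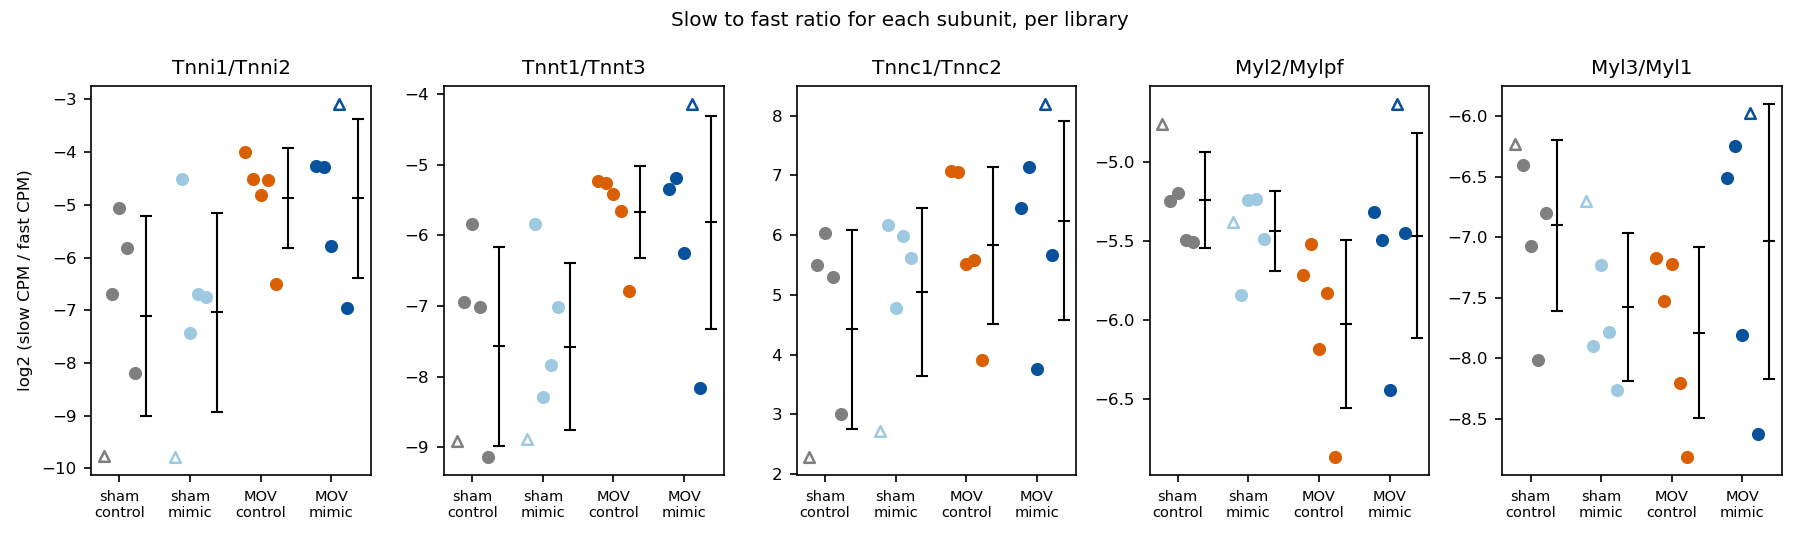
Log2 of slow over fast CPM for each subunit in each library, with the group mean and SD as black bars and the 3 libraries that stood apart as open triangles. The Tnni1/Tnni2 and Tnnt1/Tnnt3 ratios are higher in most MOV libraries. The Myl2/Mylpf ratio of MOV control lies narrowly below all sham control libraries, with -5.52 at its highest against -5.51 at their lowest.

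The next comparison set mimic against control under overload. Control and mimic muscles came from the same mice, and these fits take no account of it because the labels do not tie the libraries to mice. The 5 slow genes had log2FC from 0.01 to 0.54 and the 5 fast genes from -0.56 to -0.10. None passed the threshold: 0 of 10 genes and 0 of 15220 genes tested (0%) had an adjusted p under 0.05 in edgeR. At an unadjusted p under 0.05 there was also none of the 10, beside 4.21% of all genes (2.46% higher and 1.75% lower). DESeq2 gave 0 of the 10 and 3 of all genes past the adjusted threshold and 1 of the 10 at an unadjusted p under 0.05 (5.35% of all genes), and limma with voom gave 0 in each case (8.86% of all genes at the unadjusted p). The groups overlapped in all 10 genes, while 0.309% of all genes were higher and 0.476% lower in every MOV mimic library. The largest difference was in Mylpf, the fast regulatory light chain, at 7817, 7336, 8546, 12172 and 13877 CPM in MOV control and 7455, 4094, 11002, 6038 and 4954 CPM in MOV mimic. Here 3 of 5 mimic libraries were below all control libraries, with a log2FC of -0.56 (edgeR p = 0.0621, adjusted p = 0.999, exact permutation p = 0.0873) and an interval from -1.16 to 0.03. Myl1 followed at -0.38, with an interval from -0.92 to 0.16. Tnni2 and Tnnt3 were at -0.17 and -0.21.

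Among the slow genes of that comparison, Myl3 had a log2FC of 0.54 with an interval from -0.18 to 1.26, and Tnnc1 of 0.50 with an interval from -0.67 to 1.67. For Tnni1 the log2FC of 0.09 had an interval from -0.96 to 1.14, and for Tnnt1 the log2FC of 0.05 had one from -0.91 to 1.01. Both intervals include -0.69, the overload value of Myl2, so a difference of that size was not excluded by these fits. MOV mimic replicate 4 held the highest Tnni1, Tnnt1, Tnnc1, Myl2 and Myl3 of all MOV libraries. Without it the log2FC of Tnni1, Tnnt1, Tnnc1 and Myl2 turned to -0.42, -0.47, -0.06 and -0.22, and that of Myl3 went to 0.26. That library had the lowest total count, 12036360, and lay farthest out on both components, and the part of this in the result was not tested. The summed leukocyte markers ran from 743 to 2202 CPM in MOV mimic and from 438 to 1378 CPM in MOV control, with a positive log2FC in 15 of 15 markers tested. At an unadjusted p under 0.05 there were 5 of them, beside 2.46% of all genes higher, and 0 passed the threshold. The part of these markers in the result was not tested either.

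In sham muscles the mimic made no difference that passed the test in any of the 10 genes, beside 0 of 14746 genes (0%). At an unadjusted p under 0.05 there was only Myl2, beside 1.72% of all genes (0.563% higher and 1.16% lower), with a log2FC of -0.40 ± 0.18 (SE, n = 5 per group, edgeR p = 0.0422, adjusted p = 1, exact permutation p = 0.127). DESeq2 and limma with voom each gave 0 genes past the adjusted threshold and 2 of the 10 at an unadjusted p under 0.05, beside 1.92% and 3.77% of all genes. Myl3 had a log2FC of -0.77, with 1 of 5 sham mimic libraries below all sham control libraries. Tnni1 and Tnnc1 were at -0.07 and -0.12, with intervals of over 1 log2 unit to either side, since both genes spanned over 12-fold within each sham group. Tnnc2 had 4 of 5 sham mimic libraries below all sham control libraries and an exact permutation p of 0.0159, on counts of 10 to 26 per library. No gene of the 10 had groups that did not overlap, beside 0.365% of all genes (0.161% higher and 0.204% lower).

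Whether overload acted differently under the 2 viruses was tested as an interaction over the 20 libraries. No gene of the 10 passed, beside 0 of 16166 genes (0%), and 1 of the 10 was under an unadjusted p of 0.05, beside 2.64% of all genes (1.3% higher and 1.34% lower). DESeq2 gave 0 of the 10 and 1 of all genes past the threshold and limma with voom gave 0. The gene under the unadjusted threshold was Myl3, with a log2 interaction of 1.30 ± 0.56 (SE, edgeR adjusted p = 1): its overload difference was -0.97 under control and 0.33 under mimic. It was no longer under the unadjusted threshold without sham control 1 or 2, sham mimic 4 or 5, or MOV mimic 4. For the slow troponins the interaction was 0.15 for Tnni1, 0.34 for Tnnt1 and 0.61 for Tnnc1, with intervals wide enough to hold a change in either direction. The comparisons with sham and those between viruses share libraries and are not independent of each other.

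Tnnt1 spanned only 1.78-fold within MOV control, but in the other groups, and for Tnni1 and Tnnc1 in all groups, the slow troponins spanned at least 3.62-fold. Over the 20 libraries, Tnni1 spanned 50.4-fold, Tnnt1 22.0-fold and Tnnc1 58.8-fold, against 3.71-fold for Myl2, 6.7-fold for Myl3 and 2.87- to 3.42-fold for the 4 abundant fast genes. After the group mean was taken from each log2 CPM, Tnni1 and Tnnc1 had a Pearson r of 0.96 (Spearman rho 0.96) over 20 libraries, Tnni1 and Tnnt1 of 0.86 (0.91) and Tnnt1 and Tnnc1 of 0.84 (0.90). These are descriptions with no p, since libraries share normalization and control and mimic muscles came from the same mice. Without the 3 libraries that stood apart the 3 values of r were 0.93, 0.91 and 0.86 over 17 libraries. The slow light chains followed the slow troponins less closely, with r of 0.22 to 0.41 for Myl2 and -0.02 to 0.25 for Myl3 against the 3 troponins. Without the 3 libraries these were 0.34 to 0.46 and 0.27 to 0.32. Myl2 and Myl3 had an r of 0.55 with each other (0.41 without the 3 libraries).

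The same libraries were low or high in genes of regenerating fibres. Tnni1 had an r of 0.94 with the mean of 10 regenerating fibre genes, which include the embryonic and neonatal myosins Myh3 and Myh8 and the myogenic factor Myog, and of 0.92 without the 3 libraries that stood apart. For Tnnt1 and Tnnc1 the values were 0.86 and 0.84. The summed level of these 10 genes ran from 200.1 to 1355 CPM in sham control, 816 to 2365 CPM in MOV control, 248 to 2721 CPM in sham mimic and 138 to 2155 CPM in MOV mimic. Sham mimic replicate 2, the highest sham library for Tnni1 at 206 CPM, was the one at 2721 CPM, and MOV mimic replicate 5, the lowest MOV library for Tnni1 at 48.6 CPM, was the one at 138 CPM. The part of these genes in the overload differences was not tested. With the 13 slow-fibre partners, such as the slow myosin Myh7 and the slow calcium pump Atp2a2, r was 0.86 for Tnni1, 0.95 for Tnnt1 and 0.80 for Tnnc1.

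Among the abundant fast genes, the highest r were 0.92 for Tnni2 with Tnnt3 and 0.90 for Mylpf with Myl1. Across these, Myl1 had 0.71 with Tnnt3 and 0.67 with Tnni2, and Mylpf had 0.50 with Tnnt3 and 0.47 with Tnni2. Tnnc2, in spite of its few counts, had an r of 0.86 with Mylpf. Tnni1 was opposite to Tnni2 (r = -0.78) and to Tnnt3 (r = -0.66), which were -0.67 and -0.47 without the 3 libraries that stood apart, and near 0 with Mylpf (0.06). The fast genes were also low where markers of other cells were high: r with the leukocyte markers was -0.85 for Tnnt3, -0.73 for Tnni2, -0.65 for Myl1 and -0.36 for Mylpf, and with the fibroblast and tendon markers -0.81, -0.65, -0.47 and -0.29. Without the 3 libraries these were -0.76, -0.6, -0.75 and -0.51 with the leukocyte markers. With the fibroblast and tendon markers they were -0.72, -0.55, -0.66 and -0.56. Tnni1 had 0.54 and 0.45 with these 2 lists, and 0.24 and 0.09 without the 3 libraries. The part of these markers in the relation of slow and fast genes was not tested. Among 14697 genes with a symbol, those most like the mean of the 5 slow genes included Atp2a2 (r = 0.92), Jam3, Rap1gap2 and Myog (0.91 to 0.88). Those most like the mean of the 5 fast genes were the fast tropomyosin Tpm1 (r = 0.95) and 5430437P03Rik, Psmd8, Mrpl17 and BC004004 (0.91 to 0.90).

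**Figure D4:**
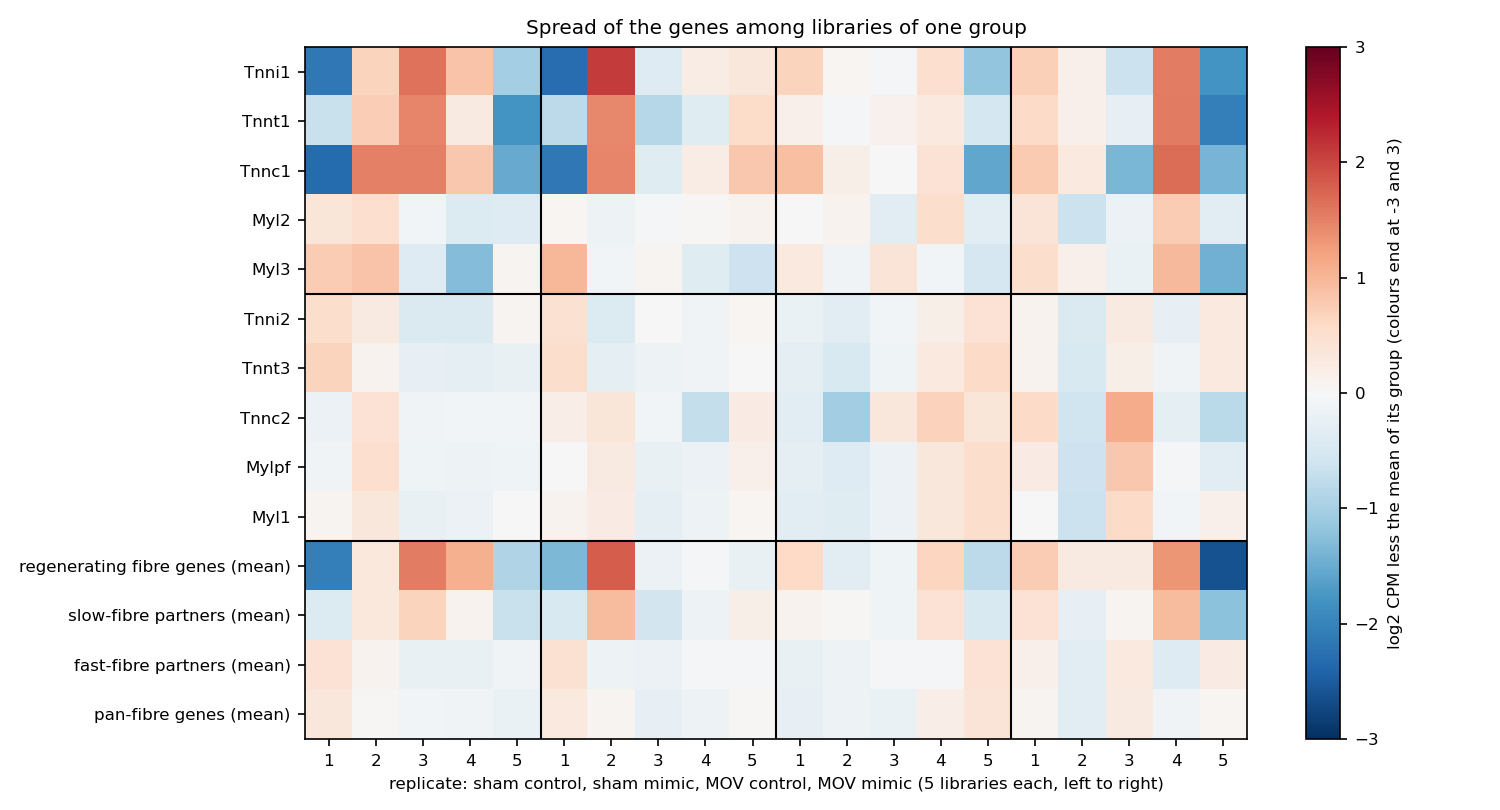
Log2 CPM of each gene less the mean of its group, in the 20 libraries ordered by group and replicate, with the means of 4 gene lists in the bottom rows. Tnni1, Tnnt1 and Tnnc1 are low in sham control 1 and 5, sham mimic 1 and MOV mimic 5 and high in sham control 3, sham mimic 2 and MOV mimic 4, as the regenerating fibre genes are, while the fast genes vary less.

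The remaining genes of both families were followed as a list of 10, of which 9 passed the filter on low counts and Myl7 did not. In MOV control against sham control 0 of 9 passed the test in either direction, 3 were higher and 1 lower at an unadjusted p under 0.05 (9.06% and 9.15% of all genes), and the median log2FC was 0.77 beside 0.04 over all genes tested. Of the genes with higher values, Tnnt2, the cardiac troponin T, had 1.34 ± 0.59 (edgeR adjusted p = 0.248), Myl4, the embryonic and atrial light chain, 1.21 ± 0.57 (0.285), the light chain Myl6b 1.42 ± 0.50 (0.158) and Tnni3, the cardiac troponin I, 0.81 ± 0.57 (0.475) at a mean of only 1.46 CPM in MOV control. Tnnt2 had a median of 24.3 CPM in sham control and 77.0 CPM in MOV control, and Myl4 of 59.6 and 143 CPM. Of the light chains of smooth muscle and other cells, Myl12a had 0.77, Myl6 0.16, Myl9 -0.08, Myl12b -0.40 and Myl10 -1.41. Under the mimic, MOV against sham gave 1.69 for Tnnt2, 1.26 for Myl4, 1.27 for Tnni3, 0.90 for Myl6b, 0.25 for Myl12a, 0.20 for Myl6, -0.29 for Myl12b, -0.35 for Myl10 and -0.50 for Myl9, again with 0 of 9 past the threshold, 1 higher and 1 lower at an unadjusted p under 0.05 (7.31% and 6.08% of all genes) and a median of 0.25 beside 0.02. In MOV mimic against MOV control the 9 genes lay between -0.55 (Myl9) and 0.13 (Tnni3), and in sham mimic against sham control between -0.96 (Myl10) and 0.26 (Myl6b), with none under an unadjusted p of 0.05 in either.

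The partner lists of the sarcomere were read beside these genes by counts and medians. Of 13 slow-fibre partners, 0 passed the threshold in MOV control against sham control and 6 were higher and 0 lower at an unadjusted p under 0.05, where 9.06% and 9.15% of all genes were, with a median log2FC of 0.57. Of 14 fast-fibre partners, 0 passed, 1 was higher and 7 were lower, with a median of -0.39. In MOV mimic against sham mimic, where 7.31% of all genes were higher and 6.08% lower, the slow-fibre partners had 4 higher and 1 lower with a median of 0.45, and the fast-fibre partners 0 higher and 3 lower with a median of -0.43. The regenerating fibre genes had medians of 1.33 and 0.89 in the 2 comparisons, the 26 fibre-type regulators 0.20 and -0.03, and the 20 pan-fibre genes -0.09 and -0.31, with 0 past the threshold in each list.

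Among the myosin heavy chains, which carry these light chains, the fastest isoform Myh4 had the smallest adjusted p in control muscles, with a log2FC of -1.59 ± 0.30 (SE, n = 5 per group, edgeR adjusted p = 0.0554) and a median of 35900 CPM in sham control and 12000 CPM in MOV control. Myh1 was at 0.84, Myh2 at 0.11 and the slow Myh7 at 0.92 ± 0.72 (adjusted p = 0.53). Under the mimic, Myh4 was at -0.80, Myh1 at -0.19, Myh2 at -0.46 and Myh7 at 1.74 ± 0.65 (adjusted p = 0.313). The embryonic Myh3 was at 1.73 under control and 0.21 under mimic, with SEs of 0.84 and 1.10, and the neonatal Myh8 at 1.18 and 0.83.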

How the data were processed

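RNA-seq of 20 plantaris libraries was analysed. The submitters' processing notes and the paper's methods name FastQC 0.11.9, Cutadapt 4.4, Trim Galore 0.6.10, HISAT2 2.0.5 against GRCm38 and featureCounts 1.5.0-p3, and the authors deposited raw read counts per Ensembl gene, one table for control and one for mimic libraries. Which annotation was counted, with what strand setting, and what was done with multi-mapping reads is not given in the sources used here. Libraries were grouped from the labels, and no 2 libraries of a group had the same counts.

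Symbols were matched to 32640 of 54532 genes. The main test was edgeR 4.0.16 (quasi-likelihood, TMM, filterByExpr) in R 4.3.3 on the 10 libraries of a comparison, or on 20 for the interaction, two-sided, with Benjamini-Hochberg adjustment over all genes tested and a threshold of 0.05. All 10 genes passed the filter on 20 libraries, which left 16166 genes. Intervals are 95% from the same fit, and log2 CPM used a prior count of 2. Exact permutation tests used all splits of 5 against 5 libraries. The tests were checked on simulated counts. Other fits used limma 3.58.1 (voom with quality weights), DESeq2 1.42.0, other scalings and filters, equal replicate numbers as a block, one fit of 20 libraries, and each library left out. Leaving out 3 libraries that stood apart, and leaving out Tnnc2, were chosen after the data were seen. Lengths are those of the longest coding transcript in GENCODE vM1.

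The genes and the lists were chosen with earlier results of these data known. Named genes were all 10, the tested genes of the related troponin and light chain list, called genes of the other lists with the myosin heavy chains, the 5 genes most like each isoform set (1 of which is not reported here), and libraries that stood apart. Depth ran from 12036360 to 23056525 counts, and limits of few counts touch only Tnnc2 among the 10 genes.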

Additional observations from a re-analysis of the deposited data

Results flagged for a closer look

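Within a group of 5 libraries, a value was looked at again where its gap to the nearest library, divided by the range of the group, was above 0.71, the 95% value of Dixon's test. Of 68 sets of 5 values examined, over the 10 genes, the 5 subunit ratios and the 2 versions of the slow minus fast difference, 5 held such a value, and chance alone gives about 1 in 20 sets. Tnni1 in sham mimic was at 206 CPM in replicate 2, where the next library was at 60.4 CPM. Tnnt3 in sham mimic was at 19365 CPM in replicate 1, where the next was at 13453 CPM. Tnnc2 in sham control was at 1.59 CPM in replicate 2, against 1.08 CPM in the next, a difference of few counts. Mylpf in sham control was at 12797 CPM in replicate 2, where the other 4 libraries lay between 8124 and 8349 CPM. The log2 ratio of Tnnt1 to Tnnt3 in MOV control was -6.79 in replicate 5, where the next library was at -5.66.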

How the results depend on the processing

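In edgeR, 0 of the 10 genes passed the threshold under every alternative fitted for each comparison. Sham and MOV muscles came from different mice, so in MOV against sham the replicate block joins muscles of different mice. In MOV control against sham control the number past the threshold was 1 with DESeq2 (Myl2) and 1 with limma and voom (Myl2). It was 2 with the replicate block in DESeq2 (Tnnt1 and Myl2), and 0 in each fit that left out a library. Over all genes of that comparison the count went from 1 to 913 with DESeq2, 946 with limma and voom, 722 with the block in DESeq2, 388 with no filter, 163 with at least 10 counts in total, 36 in the fit of 20 libraries and 0 with total counts, and from 0 to 426 as single libraries were left out (426 without sham control 3, 318 without MOV control 5). In MOV mimic against sham mimic it went from 0 to 221 with DESeq2, 116 with the block in DESeq2, 17 with limma and voom, 3 in the fit of 20 libraries, 1 with no filter and 101 without MOV mimic 5. In MOV mimic against MOV control it went from 0 to 3 with DESeq2, 127 with the block in DESeq2 and 1 in the fit of 20 libraries, and for the interaction to 1 and 5 with DESeq2 without and with the block. At an unadjusted p, the count of the 10 genes in MOV control against sham control went from 4 to between 2 and 7 (2 without MOV control 1 or 4, beside 14.3% and 15.1% of all genes, and 7 without MOV control 5, beside 22.6%).

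None of the 10 genes passed the threshold in the main edgeR fits, and some of their directions turned in other fits. In MOV control against sham control, limma and voom gave -0.13 for Mylpf and -0.12 for Myl1, and leaving out single libraries gave -0.0229 to 0.28 and -0.0387 to 0.20. In MOV mimic against MOV control, limma and voom gave -0.12 for Tnni1, -0.22 for Tnnt1 and 0.30 for Tnnc2, Myl2 was at -0.0103 with no filter and at -0.0101 with at least 10 counts, and without the 3 libraries that stood apart Tnni1 was at -0.42, Tnnt1 at -0.47, Tnnc1 at -0.0568, Myl2 at -0.22 and Tnnc2 at 0.0022. Leaving out single libraries there gave -0.42 to 0.34 for Tnni1, -0.47 to 0.31 for Tnnt1, -0.0568 to 0.75 for Tnnc1, -0.22 to 0.16 for Myl2 and -0.50 to 0.10 for Tnnc2. In sham mimic against sham control the same gave -0.91 to 0.44 for Tnni1, -0.81 to 0.20 for Tnnt1, -0.55 to 0.21 for Tnnc1 and -0.0744 to 0.0932 for Myl1. For the interaction it gave -0.36 to 1.00 for Tnni1, -0.19 to 0.87 for Tnnt1, -0.0575 to 0.21 for Tnni2 and -0.20 to 0.17 for Tnnt3. Tnnt3 had an interaction of 0.17 with limma and voom and 0.0336 with total counts, and without the 3 libraries Tnni1 was at -0.36 and Tnnt1 at -0.18. The cause of these turns was not tested. Total counts in place of TMM moved the median log2FC of all genes from 0.04 to 0.20 in MOV control against sham control and from 0.02 to 0.22 in MOV mimic against sham mimic, and the directions of the 10 genes in both comparisons were kept.

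Equal replicate numbers met the rule for pairing (r over 0.1 in every pair) neither in sham nor in MOV, by the deviations from group means over 16166 genes: r averaged 0.232 and 0.163 for equal numbers against -0.052 and -0.04 for unequal ones, and lay between 0.01 and 0.66 for sham and between 0.04 and 0.32 for MOV, over 0.1 in 4 and 3 of 5 pairs, and 2 and 3 of 5 control libraries correlated best with their own number. With the replicate block, Tnni1 was at -0.18 in edgeR and -0.18 in DESeq2, Tnnt1 at -0.31 and -0.31 and Myl2 at -0.0421 and -0.0379 in MOV mimic against MOV control, where the count at an unadjusted p went from 0 to 1 in edgeR (Mylpf, beside 7.23% of all genes) and 2 in DESeq2 (Mylpf and Myl1, beside 8.81%), with 0 of the 10 past the threshold in both. Tnnc1 was at 0.0636 and 0.11 in sham mimic against sham control under this block, and the interaction was -0.0532 and -0.0395 for Tnni1, -0.12 and -0.12 for Tnnt1 and, in DESeq2, 0.00997 for Tnnt3. Calls in edgeR did not change with the block. In MOV mimic against sham mimic the count of the 10 genes at an unadjusted p was 4 and became 0 with the block in edgeR (9.34% of all genes) and 4 with the block in DESeq2 (13.1%), where equal numbers are muscles of different mice. The slow minus fast difference moved by less than its pooled spread of 0.915, from 0.52 to 0.86 in MOV control against sham control and 0.49 to 1.31 in MOV mimic against sham mimic, and 0.53 to 1.10 and 0.76 to 1.45 with single libraries left out, and in MOV mimic against MOV control it was 0.31 and became -0.05 without MOV mimic 4.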
